A study of Mus musculus with 16 samples.

Results

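The genes described here encode mitochondrial ribosomal proteins. They were taken by symbol, as every gene of the deposited table named Mrpl or Mrps followed by a number and at most 1 letter, which gave 78 of 30451 genes. Of these, 49 carry an Mrpl symbol (large subunit) and 29 an Mrps symbol (small subunit). The 4 pseudogene entries of the family were not taken. The genes were described in 5 cell types of the newborn mouse testis, and between 2 genotypes.

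Whole testes were taken at postnatal day 2 from wild-type mice and from mice with a conditional knockout of *Ddx5*. They were dissociated with TrypLE, a trypsin-like enzyme, and single cells were captured in droplets with the Chromium Single Cell 3′ kit, which counts each captured mRNA once through a unique molecular identifier (UMI) near its 3′ end. A UMI count therefore needs no correction for gene length, and levels are compared between genes as UMIs per 1000000 UMIs (CPM). The knockout removes a floxed *Ddx5* by Mvh-Cre, which acts in germ cells only, and the mice carry an Oct4-GFP transgene that marks germ cells. By this design Leydig, Sertoli, myoid and stromal cells are meant to keep *Ddx5* in both genotypes. The labels number 8 libraries per genotype, but the table holds 12186 barcodes with only 2 suffixes, so each genotype is 1 library, no test was possible and no p-value is given. Suffix 3 was read as wild type and suffix 4 as the knockout, because the numbers of cells that passed the filter came within 1 cell of the stated ones only in this order, and because all 20 CRE UMIs had suffix 4. Intervals are 95% intervals, exact Poisson for a level and exact conditional binomial for a ratio, and cover counting error only. Cells are not replicates.

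Cells were kept if they had 2000 or more genes and no more than 10% of their UMIs from mitochondrial genes, 6329 from wild type and 4950 from the other library, with medians of 11170 and 11668.5 UMIs. Germ cells had at least 3 of *Dazl*, *Ddx4*, *Mael* and *Stk31*. Leydig cells had at least 20 UMIs of *Cyp11a1*, *Cyp17a1* and *Hsd3b1* together, Sertoli cells at least 3 of *Amh*, and myoid cells at least 5 of *Acta2* and 2 of *Myh11*. Stromal cells had at least 1 *Pdgfra* UMI and at most 2 of *Amh*. Barcodes that met more than 1 rule (814 and 542) were left out, most of them myoid cells with a *Pdgfra* UMI. This left 67, 125, 2174, 54 and 2859 wild-type germ, Leydig, Sertoli, myoid and stromal cells, and 8, 102, 1602, 25 and 2496 cells in the library labelled *Ddx5* knockout. Before that step 125 wild-type cells met the germ rule, 177 the Leydig rule and 764 the myoid rule. Of 31 further markers that the rules did not use, 30 were detected in wild type and 27 were highest in the type they mark. The others were *Clu* (2737 CPM in Leydig and 2261 CPM in Sertoli cells), *Des* (113 CPM in stroma and 88.8 CPM in myoid cells) and *Tcf21* (325 CPM in myoid cells and 297 CPM in stroma). In the other library 30 were detected and 26 were highest in the type they mark, among them 5 of the 6 germ markers detected. In its 8 germ cells *Nanos2* and *Nanos3* had 0 UMIs, while *Dnd1*, *Tdrd1*, *Piwil2*, *Rhox10* and *Sycp3* were detected. In wild type, *Piwil2* was at 174 CPM in germ cells and at most 1.91 CPM elsewhere, *Insl3* at 1322 CPM in Leydig cells and at most 2.93 CPM elsewhere, and *Cst12* at 1974 CPM in Sertoli cells and at most 22.4 CPM elsewhere. *Tagln* was at 1621 CPM in myoid cells against 120 CPM in stroma, and *Dcn* at 2949 CPM in stroma against 417 CPM in myoid cells. *Hsd3b6*, an enzyme of the adult Leydig lineage, had 0 UMIs in the Leydig cells of both libraries. The same 12 barcode sequences occurred in both libraries.

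In the germ cells of the knockout-labelled library the level of *Ddx5* went against the label, with 1842 CPM against 1237 CPM in wild-type germ cells. CRE went with the label, since 7 of these 8 cells had a CRE UMI (14 in all) and the wild-type barcodes had 0. The label of the library is therefore used below in place of the genotype. In the somatic cells *Ddx5* was lower in the knockout-labelled library than in wild type. Leydig cells had 599 against 713 CPM and Sertoli cells 887 against 933 CPM. Myoid cells had 538 against 607 CPM and stroma 551 against 610 CPM. Whether these cells kept every copy of the gene was not tested. The macrophage marker *Lyz2* was at 154 CPM in Leydig cells of that library against 1.57 CPM in wild type, and at 28.3 CPM in wild-type germ cells, and the haemoglobin gene *Hbb-bs* was at 442 CPM in its stroma against 55.0 CPM in wild type. Their part in the results below was not tested.

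Mitochondria carry their own ribosome, which translates only the 13 proteins encoded in mitochondrial DNA, all of them membrane subunits of the respiratory chain and ATP synthase. Its RNAs come from mitochondrial DNA, but its proteins are encoded in the nucleus, made on cytoplasmic ribosomes and imported. Some descend from bacterial ribosomal proteins (46 members here) and others were added in the mitochondrial lineage (31 members). The symbol does not always give the place of a protein: *Mrps18a* and *Mrps30* sit in the large subunit, and *Mrps36* is now known as a component of the oxoglutarate dehydrogenase complex. In the testis, Leydig cells begin steroid synthesis at the inner mitochondrial membrane, Sertoli cells nurse the germ cells, and the germ cells at this age are gonocytes on their way to spermatogonia.

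Promoters of these genes are known for sites of the factors NRF1, GABP (an ETS factor) and YY1. RefSeq windows of GRCm38.p6, running from 250 bases before to 50 bases after the transcript start, were found for 69 of the 78 members (75 windows). The letters searched on both strands were GCGCATGC for NRF1, CCGGAAG for ETS factors and AAGATGGC for YY1. The ETS letters were in a window of 26 of the 69 members (37.7%), against 19.3% of 10624 protein-coding genes with at least 50 UMIs in wild type and 9.93% of all 27025 genes. The YY1 letters were in 12 (17.4%, against 5.01% and 3.19%) and the NRF1 letters in 8 (11.6%, against 6.04% and 3.05%). At least 1 of the 3 was in 38 members (55.1%, against 27.5% and 14.9%), and 31 members had none. Of the 12 YY1 matches, 9 began between 60 bases before and 50 bases after the start, as did 26 of 31 ETS matches and 7 of 14 NRF1 matches. NRF1 letters that overlap on both strands count once per strand, as in *Mrpl9*, *Mrpl32* and *Mrpl39*, so the distinct NRF1 stretches are fewer. The median YY1 match began at position 16 of the transcript. Another gene started on the opposite strand within 1000 bases upstream for 26 of 69 members (37.7%), against 18.8% of the expressed protein-coding genes. In 1 such pair both genes are members, *Mrps11* and *Mrpl46* on chromosome 7, whose starts are 42 bases apart. A match is a description of the letters, not a measured site.

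The first 278 bases of the window, 250 before and 28 after the start, are shown for 4 members because each window holds more than 1 of the motifs and because their genes stand for the patterns below: in wild type *Mrpl33* was nearly level over the 5 cell types, *Mrps27* was highest in Leydig cells, *Mrps18b* in germ cells, and *Mrps18a* is its paralog with another pattern. Capitals mark the motif letters on either strand.
*Mrpl33* (chr5:31613701-31613978, plus strand): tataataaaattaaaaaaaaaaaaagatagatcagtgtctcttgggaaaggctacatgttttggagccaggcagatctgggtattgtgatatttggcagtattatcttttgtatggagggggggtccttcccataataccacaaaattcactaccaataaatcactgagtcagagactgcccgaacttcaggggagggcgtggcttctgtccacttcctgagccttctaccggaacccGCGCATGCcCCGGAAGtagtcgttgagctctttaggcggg
*Mrps27* (chr13:99344536-99344813, plus strand): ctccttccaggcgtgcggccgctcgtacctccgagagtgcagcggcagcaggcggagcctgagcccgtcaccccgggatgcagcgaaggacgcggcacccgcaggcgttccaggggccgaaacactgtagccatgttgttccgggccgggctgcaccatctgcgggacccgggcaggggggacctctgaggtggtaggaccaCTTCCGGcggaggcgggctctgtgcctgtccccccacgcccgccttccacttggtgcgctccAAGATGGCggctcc
*Mrps18b* (chr17:35916413-35916690, minus strand): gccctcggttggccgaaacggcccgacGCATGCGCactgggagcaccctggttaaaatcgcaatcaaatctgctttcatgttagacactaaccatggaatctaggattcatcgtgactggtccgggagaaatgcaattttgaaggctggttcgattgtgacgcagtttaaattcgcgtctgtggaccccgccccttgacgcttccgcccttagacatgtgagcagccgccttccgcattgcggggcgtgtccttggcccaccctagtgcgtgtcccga
*Mrps18a* (chr17:46110754-46111031, plus strand): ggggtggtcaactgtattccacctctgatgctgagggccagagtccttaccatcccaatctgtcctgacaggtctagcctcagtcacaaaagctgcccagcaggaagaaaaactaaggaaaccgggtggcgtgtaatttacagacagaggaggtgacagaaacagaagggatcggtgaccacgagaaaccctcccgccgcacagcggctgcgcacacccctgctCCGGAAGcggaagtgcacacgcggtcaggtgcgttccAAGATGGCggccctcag
The *Mrpl33* window has the NRF1 letters 12 bases before the start and the ETS letters 3 bases before it. The *Mrps27* and *Mrps18a* windows pair an ETS match (48 and 26 bases before the start) with a YY1 match at positions 15 and 12 of the transcript. The *Mrps18b* stretch has NRF1 letters 223 bases before the start, and its window has them again at position 29 of the transcript and ETS letters at position 44, just past the letters shown.

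Germ and Leydig cells gave the highest share of their mRNA to mitochondrial ribosomal proteins. In wild type, the 78 genes together were at 10255 CPM in germ cells (95% interval 10123 to 10389), 9902 CPM in Leydig cells (9762 to 10044), 7716 CPM in Sertoli cells (7687 to 7746), 5522 CPM in myoid cells (5330 to 5720) and 5403 CPM in stroma (5377 to 5430). Levels over stroma were thus 1.90-fold in germ cells (interval 1.87 to 1.92), 1.83-fold in Leydig cells (1.81 to 1.86) and 1.43-fold in Sertoli cells (1.42 to 1.44). Myoid cells and stroma differed by less than counting error (1.02-fold, 0.986 to 1.06), and the intervals of germ and Leydig cells lay close to each other without overlap. With barcodes of more than 1 rule kept, 125 germ cells stood at 9756 CPM and 177 Leydig cells at 9392 CPM.

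In the library labelled *Ddx5* knockout Leydig, then Sertoli cells again stood above myoid cells and stroma, while these last types changed order within counting error. The 78 genes were at 9824 CPM in its Leydig cells, 7671 CPM in its Sertoli cells, 5281 CPM in its myoid cells and 5351 CPM in its stroma. The folds over stroma were 1.84 in Leydig, 1.43 in Sertoli and 0.987 in myoid cells. Its 8 germ cells stood at 7638 CPM (interval 7326 to 7959), 1.43-fold over stroma.

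Single cells showed the same steps. In wild type, the summed level ran from 5276 to 15370 CPM over 67 germ cells (median 10216), from 6698 to 14187 CPM over Leydig cells (median 9859), from 4055 to 12124 CPM over Sertoli cells (median 7778) and from 3665 to 7854 CPM over myoid cells (median 5633). Stromal cells ran from 1200 to 9136 CPM (median 5349). Ranges overlapped between all types, but the lower quartile of germ cells (9526 CPM) and of Leydig cells (9200 CPM) lay above the highest stromal cell, and 35.9% of stromal cells were below 5000 CPM against none of the 67 germ and 125 Leydig cells. With each cell thinned to 4000 UMIs, so that depth is equal, a median of 30 members had a UMI in a wild-type germ cell, 30 in a Leydig cell, 24 in a Sertoli cell, 18.5 in a myoid cell and 18 in a stromal cell. Unthinned, these medians were 71, 61, 54, 36 and 35. The thinned sum varied between germ cells by 2.03 times the Poisson variance, against 1.22 to 1.28 times in Leydig, Sertoli and stromal cells and 0.876 times in myoid cells. At 8000 UMIs the values were 2.82 times in germ cells and 1.24 to 1.69 times in the others.

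**Figure D1:**
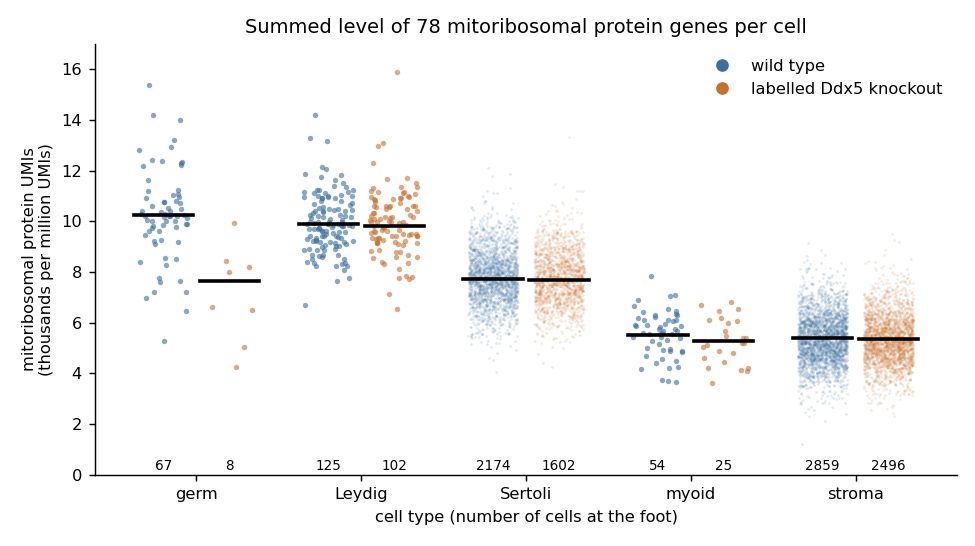
Summed UMIs of the 78 mitochondrial ribosomal protein genes per 1000000 UMIs, in units of 1000 CPM, in each cell (points) by cell type and library, with the level of the summed cells as a black bar and the number of cells below. Wild-type germ cells and Leydig cells of both libraries stand highest, stroma and myoid cells lowest, and the 8 knockout-labelled germ cells lie between 4242 and 9921 CPM.

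Cytoplasmic ribosomal proteins ran the other way. They took 13.7% of UMIs in wild-type Leydig cells, 15.3% in germ cells, 18.7% in Sertoli cells, 21.2% in stroma and 23.5% in myoid cells. For every 100 cytoplasmic ribosomal protein UMIs there were 7.24 mitochondrial ones in Leydig cells, 6.71 in germ cells, 4.12 in Sertoli cells, 2.55 in stroma and 2.35 in myoid cells. As all are shares of one total, they are not independent, and on a scale of UMIs outside mitochondrial and cytoplasmic ribosomal protein genes the folds over stroma were 1.86 in germ, 1.78 in Leydig and 1.398 in Sertoli cells. Mitochondrial mRNAs, the templates of this ribosome, followed the same order as its proteins except that Leydig cells led, with 64198 CPM in Leydig, 54765 CPM in germ, 24883 CPM in Sertoli, 18269 CPM in myoid and 17603 CPM in stromal cells. Within a type, cells with at least 5 UMIs of *Mki67*, *Top2a* and *Ube2c*, genes of dividing cells, and cells with none of them stood at 7613 and 7818 CPM among Sertoli cells and at 5496 and 5323 CPM among stromal cells. Among wild-type germ cells the 48 of the first kind stood at 10447 CPM and the 5 of the second at 10299 CPM. On the scale without mitochondrial and cytoplasmic ribosomal protein genes the stromal values were 6847 and 7039 CPM, so that their order turned with the scale.

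Members were next compared one by one, as the ratio of a type's CPM over the mean CPM of the other 4 types, and counted when past 1.5-fold. In wild type all 78 had the 50 UMIs required. In Leydig cells 30 of 78 members were higher and 0 lower, while of all 15261 genes 19.2% were higher and 44.5% lower. The count of 0 rested on the choice of cells: 5 of 77 were lower and 23 higher in the 12 Leydig cells with at most 5% mitochondrial UMIs (47.8% and 22.4% of all genes), and 1 was lower with barcodes of more than 1 type kept (43.7%). The median log2 ratio was 0.43 for members and -0.42 for all genes. In germ cells 32 members were higher and 10 lower, against 35.7% and 35.6% of all genes, so the count of higher members was near the background (41.0%) and that of lower members below it (12.8%). Sertoli cells had 3 higher and 3 lower (17.6% and 34% of all genes), and 7 higher and 0 lower when germ cells were left out of the mean (23.7% and 28%). Myoid cells had 0 higher and 45 lower (16.5% and 43.9%), and stroma 1 higher and 45 lower (19.1% and 31.9%), the single one being *Mrpl53* with 50 UMIs over the 5 types in all, which is also 1 of the 3 in Sertoli cells. The type with the highest level was germ for 40 members (51.3%, against 35.8% of all genes), Leydig for 33 (42.3%, against 18.6%) and stroma for 0 (against 15.2%). The lowest level was in stroma for 35 (44.9%, against 9.02%) and in myoid cells for 33 (42.3%, against 26.3%).

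In the library labelled *Ddx5* knockout 77 members had enough UMIs. Leydig cells again had many higher and few lower members, 38 and 2, against 23.3% and 40.1% of 14610 genes. Myoid cells had 2 higher and 42 lower (20.8% and 44.3% of all genes), stroma 0 and 31 (24.2% and 26.1%), and Sertoli cells 11 and 6 (25.3% and 30.5%). Germ cells had 26 higher and 37 lower (25.2% and 56%). The mean of the other types contained the 8 germ cells for each somatic type.

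**Figure D2:**
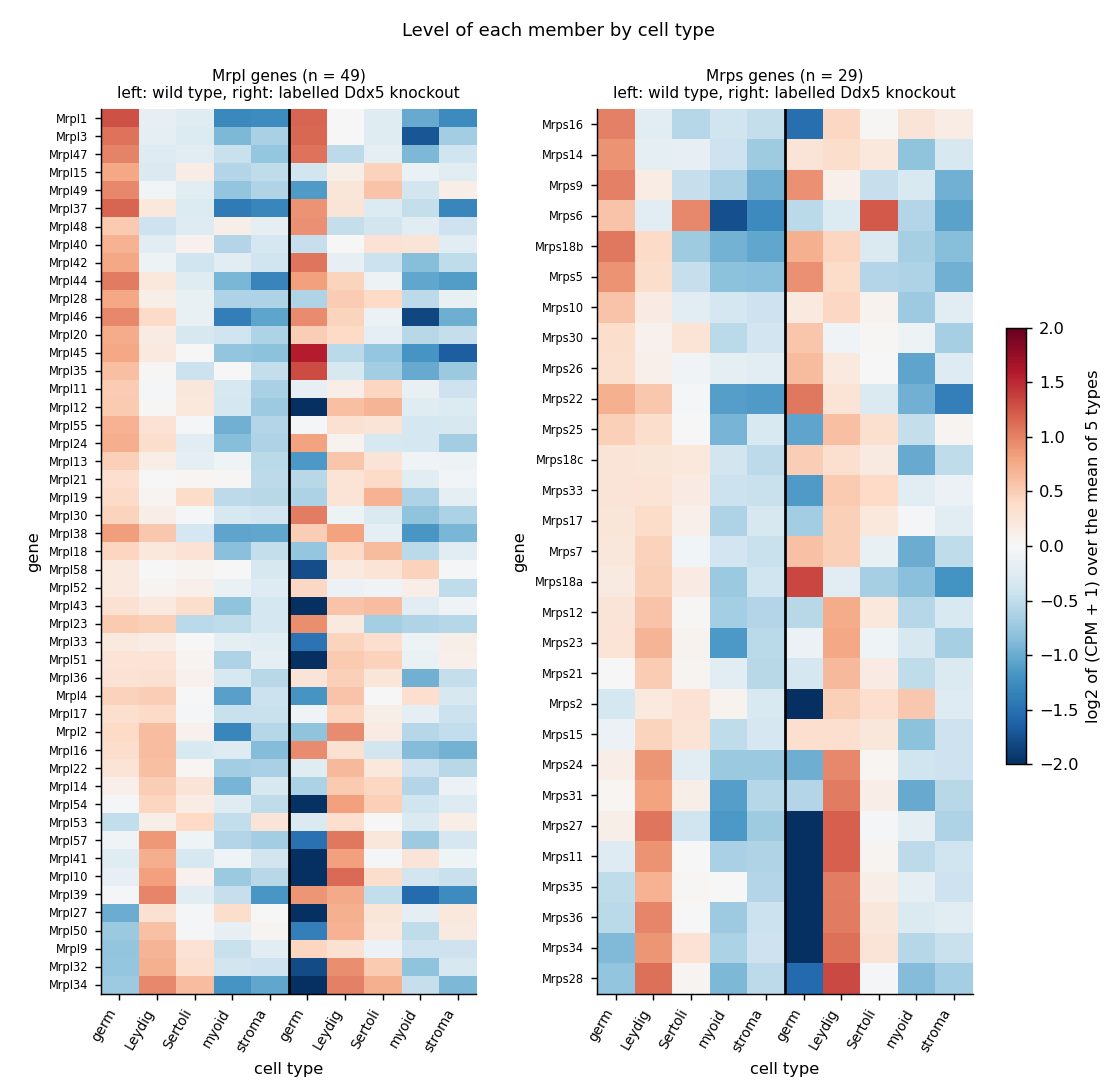
Level of each of the 49 Mrpl (left) and 29 Mrps genes (right) in 5 cell types of wild type and of the library labelled *Ddx5* knockout, as log2 of CPM + 1 over the mean of the 5 types (colours end at -2 and 2), with genes in order of the difference between wild-type germ and Leydig cells. Germ-high genes stand at the top of each panel and Leydig-high genes at the foot, and the somatic columns look alike in both libraries while the germ columns do not.

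Among single members, *Mrpl52* was the most abundant, with 281 CPM over all kept wild-type cells (interval 277 to 284) and 275 CPM in the other library. It was followed by *Mrpl33* (212 CPM), *Mrps24* (195 CPM), *Mrpl30* (177 CPM), *Mrps14* (174 CPM), *Mrpl20* (161 CPM), *Mrpl54* (159 CPM) and *Mrps33* (154 CPM). The median member was at 71.6 CPM. The lowest were *Mrpl53* at 0.712 CPM, *Mrps2* at 17.2 CPM, *Mrpl47* at 18.9 CPM, *Mrps27* at 20.8 CPM and *Mrpl1* at 31.4 CPM. Most proteins of this ribosome are present in single copy per particle, and the UMI levels of their genes differed by more than an order of magnitude. How far capture and annotation of the 3′ ends set these levels was not tested. In wild type the most even member was *Mrpl33*, a homologue of bacterial L33, whose highest type was 1.33 times its lowest, and the least even with UMIs in every type was *Mrps6*, with 6.88 times. In the other library, with its 8 germ cells, these were 3.84 and 5.06 times.

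In wild-type Leydig cells the higher members took a larger share of the small than of the large subunit genes, while the shares were closer in the other library. Of the 29 Mrps genes, 15 were higher in wild-type Leydig cells and 0 lower, with a median ratio of 1.503, and of the 49 Mrpl genes 15 were higher and 0 lower, with a median of 1.22, beside 19.2% of all genes higher. In the other library 16 of 29 Mrps and 22 of 48 Mrpl genes were higher, with medians of 1.56 and 1.46, beside 23.3% of all genes. *Mrps28*, which belongs to the body of the small subunit, was at 160 CPM in Leydig cells (143 to 179), 76.9 CPM in Sertoli, 51.2 CPM in stromal, 42.6 CPM in germ and 39.1 CPM in myoid cells, 3.06 times the mean of the others. In the other library it was at 205 CPM in Leydig cells (184 to 226) and between 27.0 and 79.7 CPM elsewhere.

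*Mrps27*, a small subunit protein of the pentatricopeptide repeat family, was at 61.7 CPM in Leydig cells (51.0 to 73.8) and between 12.4 and 31.4 CPM in the other types, 2.99 times their mean. The large subunit gene *Mrpl39* was at 97.2 CPM in Leydig cells against 21.4 to 48.4 CPM elsewhere. *Mrps36*, the gene of the oxoglutarate dehydrogenase complex, was at 216 CPM against 65.7 to 110 CPM. In the second library the ratios of these 3 in Leydig cells were 3.55, 2.05 and 2.83, where *Mrpl39* was higher still in germ cells (112 CPM, against 102 CPM in Leydig cells). The rule for naming members asked for the same side in both libraries, so that the side itself says nothing here or below. *Mrps24*, one of the most abundant members, reached 469 CPM in wild-type Leydig cells (439 to 500), the highest value of any member in any wild-type cell type, and 390 CPM (362 to 420) in the other library. The member lowest in Leydig cells was *Mrpl48*, at 73.2 CPM or 0.701 times the mean of the others, which did not pass the fold.

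**Figure D3:**
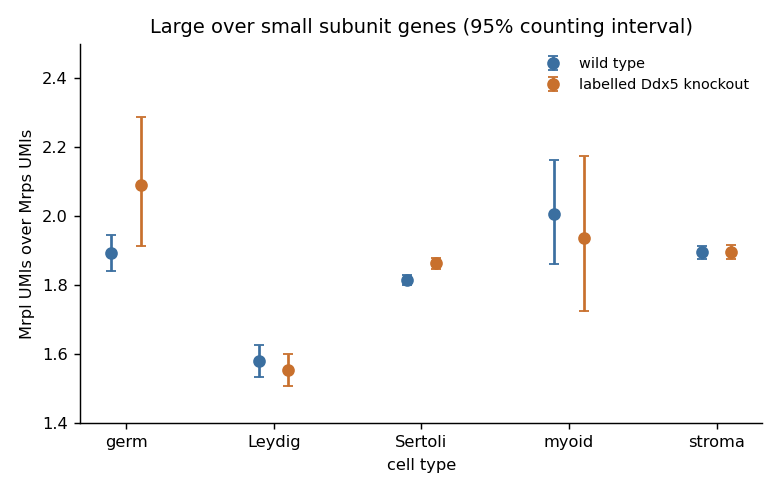
Ratio of UMIs of Mrpl genes over UMIs of Mrps genes by cell type, with 95% counting intervals, in wild type (blue) and in the library labelled *Ddx5* knockout (orange). Leydig cells lie lowest in both libraries, at 1.58 and 1.55, while the other types lie between 1.82 and 2.09.

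The balance of the subunits showed this in sum. UMIs of Mrpl genes over UMIs of Mrps genes were 1.58 in wild-type Leydig cells (interval 1.53 to 1.63), against 1.89 in germ cells (1.84 to 1.95), 1.82 in Sertoli cells (1.80 to 1.83), 2.01 in myoid cells (1.86 to 2.16) and 1.89 in stroma (1.88 to 1.91). In the other library the Leydig ratio was 1.55 (1.51 to 1.60) and the others 1.86 to 2.09. Only the Leydig interval was free of overlap with every other type in both libraries. Members placed by structure instead of symbol gave 1.81 in wild-type Leydig cells and 2.08 to 2.24 in the other types. By origin, 17 of 46 bacterial-type and 12 of 31 mitochondrion-specific members were higher in wild-type Leydig cells, with median ratios of 1.30 and 1.38, and 21 of 46 and 16 of 30 in the other library, with medians of 1.47 and 1.56, beside 19.2% of all genes in wild type and 23.3% in the other.

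Germ cells had their own set. *Mrpl1*, part of the stalk where spent tRNA leaves, was at 110 CPM in wild-type germ cells (96.5 to 125), against 39.7 CPM in Leydig, 37.8 CPM in Sertoli, 18.1 CPM in stromal and 17.8 CPM in myoid cells, 3.88 times the mean of the others. It was at 112 CPM (76.8 to 157) in germ cells of the other library and at 19.7 to 49.5 CPM in its somatic types. *Mrpl37* was at 111 CPM in wild-type germ cells and 17.8 to 57.0 CPM elsewhere (3.30 times), and *Mrpl3*, a protein near the peptidyl transferase centre, at 157 CPM and 39.1 to 63.8 CPM (2.98 times). *Mrps18b* was at 124 CPM and 28.3 to 77.3 CPM (2.90 times). In germ cells of the second library the ratios of these 3 were 2.41, 3.23 and 1.98, from 25, 53 and 25 UMIs.

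Other members were low in germ cells although the family was high there. *Mrpl27*, a large subunit protein that reaches toward the peptidyl transferase centre, was at 32.3 CPM in wild-type germ cells (25.3 to 40.7) and 64.2 to 83.4 CPM in the others, 0.441 times their mean. *Mrps34* was at 39.9 CPM against 47.9 to 138 CPM (0.479 times), *Mrps28* at 42.6 CPM (0.520 times) and *Mrpl32* at 52.0 CPM against 66.5 to 146 CPM (0.527 times). In the second library the ratios of these 4 were 0.101, 0.197, 0.286 and 0.238, from only 2, 5, 8 and 7 germ cell UMIs. The leading genes of germ and Leydig cells were thus different ones. Across the 77 members with at least 50 stromal UMIs, 69 were above stroma in germ cells and 76 in Leydig cells, but the 2 ratios had a Spearman correlation of 0.0765 over these genes, which share the stromal value. Member levels themselves correlated less between germ and Leydig cells (0.562 over 78 members) than between any other pair of wild-type types (0.686 to 0.938, the highest being myoid with stroma).

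**Figure D4:**
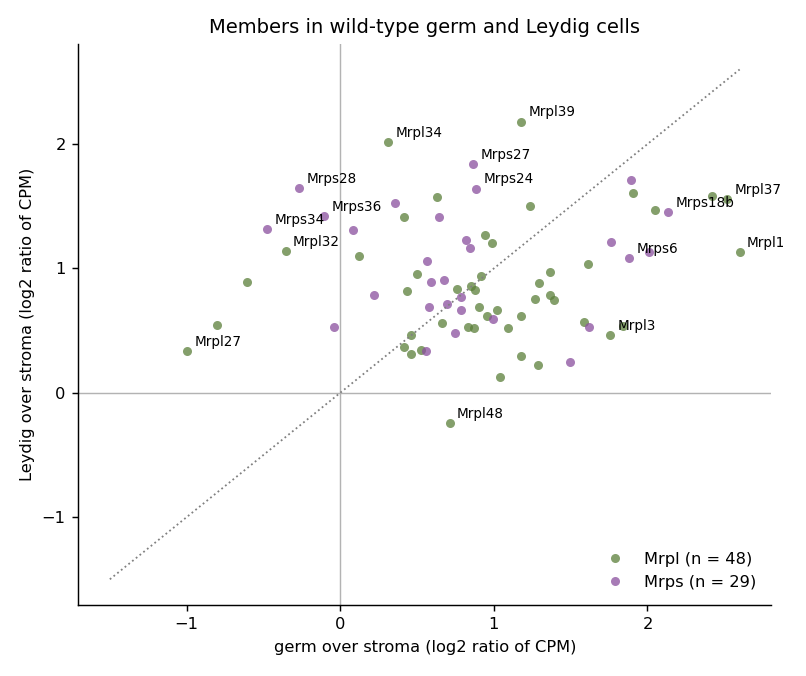
Log2 ratio of CPM over stroma for each member with at least 50 stromal UMIs in wild-type germ cells (x axis) and wild-type Leydig cells (y axis), with Mrpl genes in green, Mrps genes in purple and equal ratios on the dotted line. *Mrpl1*, *Mrpl37* and *Mrpl3* lie to the right, *Mrps28*, *Mrps34*, *Mrps36*, *Mrpl27* and *Mrpl32* are among the 8 left of 0, and *Mrpl48* alone lies below 0 on the y axis.

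The 3 paralogs of bacterial S18 took different courses. *Mrps18c*, the member that takes the place of bacterial S18, was at 118 CPM in germ, 117 CPM in Leydig, 115 CPM in Sertoli, 76.3 CPM in myoid and 68.5 CPM in stromal cells of wild type, and only the stromal level, at 0.643 times the mean of the other types, was past the fold. *Mrps18b* was high in germ cells as given above, and at 35.8 CPM in Sertoli cells, 0.551 times the mean of the others. *Mrps18a* was highest in Leydig cells (109 CPM), with 88.3 CPM in germ and 87.9 CPM in Sertoli cells. The head-to-head pair did not move as one either: *Mrpl46* was highest in germ cells (121 CPM, against 80.5 CPM in Leydig cells) and *Mrps11* in Leydig cells (211 CPM, against 93.7 CPM in germ cells). The pair was chosen after their values were seen.

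Beside *Mrpl53*, 2 members passed the fold upward in Sertoli cells. *Mrps6*, a small subunit protein of bacterial type, was at 122 CPM in wild-type Sertoli cells (119 to 126), 92.8 CPM in germ, 53.3 CPM in Leydig, 25.2 CPM in stromal and 17.8 CPM in myoid cells, and at 129 CPM (124 to 133) against 25.4 to 44.5 CPM in the other library. Sertoli cells were thus highest in both. *Mrpl34* was at 156 CPM in Sertoli and 199 CPM in Leydig cells, against 61.0 CPM in germ, 49.1 CPM in stromal and 44.4 CPM in myoid cells. The members farthest down in Sertoli cells, past the fold only with germ cells in the mean, were *Mrps18b* and *Mrpl23* (60.4 CPM, 0.634 times the mean of the others).

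Myoid cells and stroma were low in most members. The farthest down in stroma were *Mrpl44* (18.5 CPM, 0.337 times), *Mrpl37* (19.4 CPM, 0.342 times), *Mrps6* (0.352 times) and *Mrpl1* (0.353 times). Among the 21 members with at least 50 UMIs in myoid cells, those farthest down were *Mrps24* (151 CPM, 0.542 times), *Mrps17* (88.8 CPM, 0.596 times) and *Mrpl28* (99.4 CPM, 0.600 times). Of the 6 members above the mean of the others in myoid cells and the 2 in stroma, the farthest up beside *Mrpl53* were *Mrpl27* in myoid cells (83.4 CPM from 47 UMIs, 1.38 times), whose level was highest there, *Mrpl48* in myoid cells (107 CPM, 1.11 times) and *Mrpl50* in stroma (72.7 CPM, 1.05 times). With barcodes of more than 1 rule kept, 764 myoid cells of wild type stood at 5525 CPM for the 78 genes and 524 of the other library at 5340 CPM, close to the values of the 54 and 25 cells.

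The genes that work with this ribosome followed its proteins in Leydig cells, as counted over lists taken by function. Of 15 mitochondrial translation factors, 8 were higher and 1 lower in wild-type Leydig cells, and of 26 assembly and rRNA modification factors 14 were higher and 1 lower, beside 19.2% of all genes higher and 44.5% lower. In germ cells 6 and 8 were higher and 2 and 5 lower, beside 35.7% and 35.6%. The elongation factor gene *Tufm* was at 111 CPM in Leydig, 87.5 CPM in germ, 42.9 CPM in Sertoli and 34.7 CPM in stromal cells, and lowest in myoid cells. In the other library it was highest in germ cells, at 145 CPM (43 UMIs) against 108 CPM in Leydig cells. Its partner *Tsfm* was at 135 CPM in Leydig cells and at most 79.0 CPM elsewhere. *Oxa1l*, which inserts the new chains into the inner membrane, was at 171 CPM in Leydig but 35.9 CPM in germ cells. *Mpv17l2*, an assembly factor, was at 137 CPM in Leydig cells and at most 30.9 CPM elsewhere.

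Wild-type germ cells led for other factors. *Lrpprc*, which protects mitochondrial mRNAs, was at 122 CPM in germ cells and at most 56.4 CPM elsewhere, and *Rbfa*, an assembly factor of the small subunit, at 209 CPM against at most 131 CPM. In the knockout-labelled library both were highest in Leydig cells instead, *Lrpprc* with 53.9 CPM against 47.3 CPM in the 8 germ cells and *Rbfa* with 132 CPM against 74.3 CPM. In wild type, 2 of 5 mitoribosome proteins without an Mrp symbol were higher and 0 lower in Leydig cells (19.2% and 44.5% of all genes), and 2 were higher and 1 lower in germ cells (35.7% and 35.6%). The lower one was *Gadd45gip1*, a large subunit protein, at 0.590 times the mean of the other types in germ cells. It was the highest of the 5, at 427 CPM in Leydig and 286 CPM in Sertoli cells against 86.7 to 132 CPM in the others. Of the 13 mitochondrial mRNAs, 11 were higher in germ cells (35.7% of all genes) and 11 in Leydig cells (19.2%), and all 13 were lower in myoid cells (43.9%) and in stroma (31.9%). The single one lower in wild-type germ cells was *mt-Nd6*, at 0.5001 times the mean of the others. In the knockout-labelled library all 13 were higher in Leydig cells (23.3%), but 0 were higher and 7 lower in its 8 germ cells (25.2% and 56%). The filter on mitochondrial UMIs caps the levels of these mRNAs. In the same 8 germ cells 0 of the 5 proteins without an Mrp symbol were higher and 5 lower (25.2% and 56% of all genes). Of the 15 translation factors 5 were higher and 7 lower there, and of the 26 assembly factors 6 and 12. Of 13 regulators of mitochondrial transcription and biogenesis 1 was higher in wild-type Leydig cells, *Esrra* (17.2 CPM, against at most 10.3 CPM elsewhere), and 6 were lower, beside 19.2% and 44.5% of all genes. In germ cells 4 were higher and 3 lower, beside 35.7% and 35.6%. The factors whose letters were searched above were at 12.5 CPM (*Nrf1*), 21.9 CPM (*Gabpa*) and 161 CPM (*Yy1*) in Leydig cells and at 32.3, 54.3 and 69.5 CPM in germ cells. *Pprc1*, a coactivator of this programme, was at 104 CPM in germ cells and at most 14.4 CPM elsewhere.

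Between the libraries, the somatic cells differed little. The 78 genes together stood in the library labelled *Ddx5* knockout at 0.992 of the wild-type level in Leydig cells (interval 0.972 to 1.01), 0.994 in Sertoli cells (0.988 to 0.99977, and 1.00374 without the barcodes called as doublets), 0.956 in myoid cells (0.896 to 1.02) and 0.990 in stroma (0.983 to 0.997). Of 77 members with at least 50 UMIs, 0 passed 1.5-fold in either direction in Leydig cells (all genes 3.05% higher and 3.18% lower), in Sertoli cells (3.39% and 2.32%) and in stroma (2.47% and 2.03%). In myoid cells 0 of 38 were higher and 5 lower (4.74% and 8.62%). Member levels of both libraries had Spearman correlations of 0.984 in Leydig, 0.991 in Sertoli, 0.995 in stromal and 0.853 in myoid cells.

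Where the interval of a member excluded 1, the difference was smaller than the fold, except for *Mrps14* in myoid cells. The intervals are not adjusted for the number of members, so some exclude 1 by counting error alone. The interval excluded 1 upward for 11 of 77 members and downward for 13 in Sertoli cells (all genes 15.8% and 15%), for 6 and 10 in stroma (12.5% and 13.3%), for 1 and 3 in Leydig cells (5.72% and 6.26%), and for 1 and 1 of 38 in myoid cells (5% and 6.47%). Those farthest from 1 were these. In Leydig cells *Mrps28* was at 1.27 times its wild-type level (1.09 to 1.49), and *Mrps24* at 0.831 (0.752 to 0.919), *Mrpl55* at 0.776 (0.618 to 0.972) and *Mrpl49* at 0.719 (0.519 to 0.991). In Sertoli cells *Mrps18b* was at 1.16 (1.07 to 1.25), *Mrpl3* at 1.12 and *Mrpl18* at 1.07, and *Mrpl4* at 0.867 (0.815 to 0.921), *Mrps11* at 0.908 and *Mrps21* at 0.912. In stroma *Mrpl47* was at 1.24 (1.09 to 1.43), *Mrpl9* at 1.12 and *Mrpl39* at 1.14, and *Mrps27* at 0.840 (0.733 to 0.961), *Mrps26* at 0.900 and *Mrpl48* at 0.923. In myoid cells *Mrpl52* was at 1.38 (1.05 to 1.80) and *Mrps14* at 0.562 (0.339 to 0.895). With 1 library each, how far 2 libraries of one genotype would differ is not known.

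Germ cells were the exception, with 67 wild-type cells against only 8. The 78 genes stood at 0.745 of the wild-type level (0.713 to 0.778). The 8 cells were at 4242, 5033, 6509, 6635, 8007, 8210, 8455 and 9921 CPM, so 6 of them lay within the wild-type range of 5276 to 15370 CPM and 2 below it, and all lay below the wild-type median of 10216 CPM. They also gave 33.5% of their UMIs to cytoplasmic ribosomal proteins (15.3% in wild type) and 2.72% to mitochondrial genes (6.11%). On the scale of UMIs outside both groups the ratio was 0.918. Mitochondrial mRNAs, whose level the filter on mitochondrial UMIs caps, were at 20422 CPM against 54765 CPM. The genes of dividing cells were lower too, *Mki67* at 13.5 CPM against 154 CPM, *Top2a* at 81.1 CPM against 311 CPM and *Ube2c* at 27.0 CPM against 139 CPM, and 2 of the 8 cells had at least 5 UMIs of them. The part of these differences in the lower level was not tested. Fewer members were seen per cell thinned to 4000 UMIs, 20.5 against 30.

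Members and all genes were spread to a like extent between these germ cells. Of 76 members, 8 were higher and 43 lower (12.1% and 60% of 6806 genes), and the median log2 ratio was -0.87 for members and -0.92 for all genes. With cells of at most 5% mitochondrial UMIs, which left 19 of the wild-type germ cells and all 8 others, 7 of 58 members were higher and 27 lower (15.4% and 51.4% of 2807 genes). On the scale without mitochondrial and cytoplasmic ribosomal protein genes 16 members were higher and 38 lower (17.6% and 51.2% of all genes on that scale). Their levels in both libraries had a Spearman correlation of 0.516 over 78 members. *Mrps16*, a small subunit protein of bacterial type, was at 370 CPM (824 UMIs) in wild-type germ cells and 40.6 CPM (12 UMIs) in the others, 0.110 times (0.0565 to 0.193). *Mrpl12*, which forms the stalk that receives the translation factors, went from 219 to 20.3 CPM, 0.0925 times (0.0338 to 0.203), and *Mrpl43* from 126 to 13.5 CPM, 0.107 times (0.0289 to 0.277). *Mrpl10*, the protein that holds the *Mrpl12* stalk, had 84 UMIs in wild-type germ cells (37.7 CPM) and 0 in the 8 others, where 3 UMIs, taken as the floor of a count of 0, would be 10.1 CPM, so its level was at least 3.72-fold lower by that floor, and the two-sided interval of the ratio reached 0.338. *Mrps2* had 29 UMIs and 0. The same floor gave 1.28-fold for it, but the two-sided interval of its ratio reached 1.02, so that no difference was detectable at this depth.

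The other direction was taken by *Mrps18a*, at 88.3 CPM in wild-type germ cells and 345 CPM (102 UMIs, a UMI in each of the 8 cells, at most 29 in 1 cell) in the others, 3.90 times (3.04 to 4.98). *Mrpl45*, which anchors the ribosome at the inner membrane, went from 101 to 328 CPM, 3.25 times (2.53 to 4.14), and *Mrpl9* from 30.5 to 94.6 CPM, 3.103 times (1.92 to 4.88). By contrast *Mrpl1* (1.01 times, 0.683 to 1.46) and *Mrpl3* (1.14 times, 0.840 to 1.53) differed by less than counting error. With the 3 of these germ cells that had more than 1 CRE UMI against the 32 wild-type germ cells with more than 2 GFP UMIs, the ratio of the 78 genes was 0.825.

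**Figure D5:**
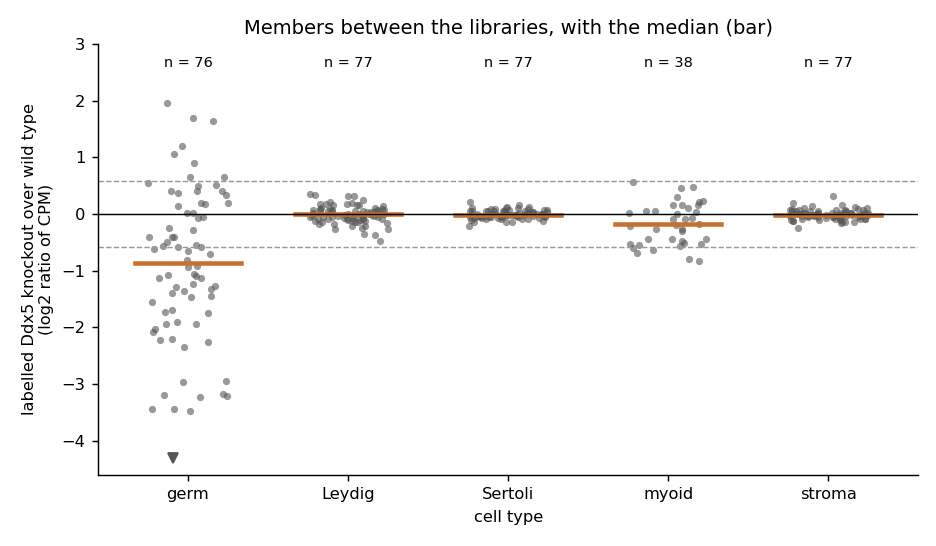
Log2 ratio of knockout-labelled over wild-type CPM for each member with 50 or more UMIs summed over the libraries, by cell type, with the median as an orange bar, 1.5-fold as dashed lines and *Mrpl10*, without a UMI in the knockout-labelled germ cells, as a triangle at the foot. Leydig, Sertoli and stromal members lie between the dashed lines, while germ cell members spread widely around a median of -0.87.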

How the data were processed

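The deposited table holds raw UMI counts for 30451 genes and 12186 barcodes, which the authors made with Cell Ranger 3.1.0 on GRCm38 with GFP and CRE added, per the submitters' processing notes, which also name Seurat 3.1.5. The 8 numbered libraries per genotype are merged there, and barcodes carry only a suffix. No column of a sample was left unused (0 columns).

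Members and gene lists were chosen with earlier results of these data known, and the cycling threshold and the alternatives without the deepest germ barcode and without germ cells in the mean after seeing the data. Counts were summed per suffix and cell type and divided by all UMIs (CPM). Genes with at least 50 UMIs were compared, over the 5 types of a library or over both libraries in a type, and counted past 1.5-fold. Named genes were the 8 highest and 5 lowest members, up to 4 on each side in each type that passed the fold, had at least 50 UMIs there and lay on the same side in both libraries (else the single highest and lowest), up to 3 in each direction farthest from 1 between libraries by the near bound, the *Mrps18* paralogs and fixed lists of companion genes. *Mrpl46*, *Mrpl10* and *Mrpl53* in the counts were named after their values were seen. The wild-type barcodes held 84263163 UMIs in all and the others 67558106. PCR and droplet losses are not covered by the intervals.

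Sums were computed in Python 3.11.15 with NumPy 2.4.6, SciPy 1.17.1 and pandas 2.3.3, doublets were called per suffix with Scrublet in scanpy 1.11.5 (294 kept cells, 4.65%, and 300, 6.06%) and left in, and figures were drawn with matplotlib 3.10.9. The steps were tested on simulated data. Alternatives changed the filters on cells and UMIs, the type rules, the scale and the doublets. Promoter windows came from RefSeq tables of GRCm38.p6, and protein sequences were not used here.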

Additional observations from a re-analysis of the deposited data

Results flagged for a closer look

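In 8 members the germ cells lay past 1.5-fold above the mean of the other types in wild type and past it below in the library labelled *Ddx5* knockout, which is 10.5% of the 76 members compared and 11.7% of all 6552 genes compared. The reverse course was taken by 0 members and by 0.366% of all genes. Genes compared had at least 50 germ cell UMIs over both libraries, most of which came from wild type. Germ cells stood over the mean of the other types at 2.69 times for *Mrps16* in wild type (824 germ cell UMIs) and 0.297 times in the other library (12 UMIs), and at 1.63 (489 UMIs) and 0.162 times (6 UMIs) for *Mrpl12*. The values were 2.57 (231 UMIs) and 0.382 times (4 UMIs) for *Mrpl49*, 2.07 (580 UMIs) and 0.602 times (20 UMIs) for *Mrpl28*, and 1.70 (207 UMIs) and 0.634 times (11 UMIs) for *Mrps6*. They were 1.54 (226 UMIs) and 0.377 times (8 UMIs) for *Mrpl4*, 1.55 (481 UMIs) and 0.394 times (15 UMIs) for *Mrpl13*, and 1.55 (202 UMIs) and 0.415 times (7 UMIs) for *Mrps25*. The difference between the libraries was not tested, since each is 1 library and the lower values rest on 8 germ cells.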

How the results depend on the processing

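Without a replicate, the size of a change was read against counting error for ratios and against 1.5 times for counts. Of the recomputed values 392 changed by less than that, 93 by more and 1 changed direction. No paired analysis was possible because the table does not separate the numbered libraries of a genotype, and for the same reason no replicate could be left out.

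Counts are given with the members tested and, in parentheses, the share of all genes tested in that setting. At least 3000 genes per cell gave a Sertoli level over stroma of 1.41, 0 of 77 members higher in stroma (18.8%) and 3 of 29 lower between libraries in myoid cells (8.52%). At most 5% mitochondrial UMIs, which left 19 wild-type germ and 12 Leydig cells, gave 1.64 for Leydig over stroma, 5 of 77 members lower in germ (38.6%) and 5 in Leydig cells (47.8%), 0 higher in stroma (20.6%), 27 of 58 lower between libraries in germ cells (51.4%), 1 of 31 higher (8.15%) and 2 lower (7.55%) between libraries in Leydig cells, and a Leydig subunit ratio of 1.52. With barcodes of more than 1 rule kept, germ, Leydig and Sertoli cells stood at 1.77, 1.70 and 1.405 over stroma, the library ratios were 0.784 in germ, 0.988 in Sertoli and 0.981 in stromal cells, and of 78 members 6 were lower in germ (30.4%), 1 lower in Leydig (43.7%), 1 lower in Sertoli (34.7%), 1 higher in myoid (14.6%) and 0 higher in stroma (16.8%), with 0 of 77 lower between libraries in myoid cells (2.83%).

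Without the barcodes Scrublet called, Sertoli cells stood at 1.46 over stroma, their library ratio turned from 0.994 to 1.00374, and 0 of 77 members were higher in stroma (19.2%). On UMIs outside mitochondrial and cytoplasmic ribosomal protein genes the levels over stroma were 1.86, 1.78 and 1.398 in germ, Leydig and Sertoli cells, and between libraries the germ ratio was 0.918 with 16 of 76 members higher (17.6%), and 1 of 38 was higher in myoid cells (5.61%). The mean of cells gave 1.46 in Sertoli over stroma and a germ ratio of 0.695. Thresholds at 2 times gave a germ ratio of 0.778, 0 of 77 members higher in stroma (18.3%), and 3 of 59 lower (4.46%) and 2 higher (3.68%) between libraries in myoid cells. GFP and CRE gave 0.825 and the omission of the deepest barcode 0.779. With germ cells left out of the mean, 7 of 78 members were higher (23.7%) and 0 lower (28%) in Sertoli cells and 0 higher in stroma (21.2%). A minimum of 10 UMIs gave 10 of 77 lower (18.6%) and 9 higher (13.3%) between libraries in myoid cells, and 1 of 78 lower each in Sertoli cells (5.94%) and stroma (5.5%). Subunits by structure gave 2.08, 1.81, 2.08, 2.24 and 2.16 in germ, Leydig, Sertoli, myoid and stromal cells. At 8000 UMIs a cell showed 45, 46, 40, 31 and 31 members in that order. The cause of each change was not tested. In the 8 germ cells, 3 UMIs are 10.1 CPM.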
